A study of Mus musculus with 12 samples.

Results

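The genes described here carry amino acids, or close chemical relatives of amino acids, across the membranes of mouse liver cells. They belong to the solute carrier families Slc1, Slc3, Slc6, Slc7, Slc36, Slc38 and Slc43. The table of counts listed 60 gene symbols of these families that end in a number, Slc7a11 left out by the rule, among 53599 genes. Symbols that end in a letter, such as Slc6a20a, did not match the rule. The 34 genes with at least 10 counts in at least 3 libraries are the members, and all 34 were among the 16210 genes tested. A member counted here could have passed through a single group: 25 of the 34 had at least 10 counts in all 12 libraries. The other 9 were short of that in 1 or more libraries: Slc1a1, Slc7a6, Slc7a8, Slc7a3, Slc6a12, Slc6a19, Slc38a1, Slc38a11 and Slc43a1. The families are named for amino acids, but several members are known for other cargo: Slc6a6 carries taurine, Slc6a8 creatine, Slc6a12 betaine and GABA, Slc6a13 GABA and taurine, and Slc43a3 purine nucleobases.

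Bulk RNA of sorted cells was sequenced in 4 groups of 3 libraries to follow the conversion of hepatocytes toward biliary cells. All mice were labelled WT and had received AAV8-TBG-Cre, in which the hepatocyte promoter TBG drives Cre, so that EGFP marks hepatocytes and their descendants; the labels name no reporter allele and no age. All groups, controls included, came from animals fed DDC, a porphyrinogenic compound that injures bile ducts, at 0.1% of the diet for 8 weeks from 1 week after the virus. The early group was EGFP+ Cd24- Epcam-, the intermediate group EGFP+ Cd24+ Epcam-, and the full group EGFP+ Cd24+ Epcam+. The last group, biliary epithelial cells (BEC), was EGFP- Epcam+. No liver without DDC is among the groups, so early cells are hepatocytes of an injured liver. The labels do not say whether the 3 libraries of a group came from separate animals, and p-values therefore measure only the spread between these libraries, which may be technical.

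Hepatocytes draw amino acids from portal blood for protein synthesis, gluconeogenesis and the urea cycle. Cells around the central vein take up glutamate and make glutamine from the ammonia that escapes the urea cycle. Heavy chains of the Slc3 family bring Slc7 light chains to the plasma membrane, where the pair exchanges 1 amino acid for another. Members of Slc36 and some of Slc38 work at the lysosome, where amino acids feed the growth kinase mTORC1.

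Promoters of 3 members are shown because their genes took the contrasting courses described below: Slc3a1 fell, Slc43a2 rose, and Slc1a2 fell and then rose. They run from 250 bases before to 50 bases after the start site in the RefSeq table for GRCm38.p6, on the plus strand; the deposited counts were made on GRCm39, and no coordinate was moved between builds. Capitals mark the match to a searched motif, CAAAGTCCA for Slc3a1 and the reverse complement of GGAATG for Slc43a2 and Slc1a2. The Slc3a1 window is chr17:85028097-85028396, that of Slc43a2 chr11:75531444-75531743, and that of Slc1a2 chr2:102706188-102706487.
Slc3a1: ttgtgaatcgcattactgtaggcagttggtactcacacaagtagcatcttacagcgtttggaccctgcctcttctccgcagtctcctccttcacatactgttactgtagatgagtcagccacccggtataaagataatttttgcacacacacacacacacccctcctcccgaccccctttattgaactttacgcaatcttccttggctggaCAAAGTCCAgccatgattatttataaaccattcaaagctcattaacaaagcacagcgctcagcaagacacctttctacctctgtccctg
Slc43a2: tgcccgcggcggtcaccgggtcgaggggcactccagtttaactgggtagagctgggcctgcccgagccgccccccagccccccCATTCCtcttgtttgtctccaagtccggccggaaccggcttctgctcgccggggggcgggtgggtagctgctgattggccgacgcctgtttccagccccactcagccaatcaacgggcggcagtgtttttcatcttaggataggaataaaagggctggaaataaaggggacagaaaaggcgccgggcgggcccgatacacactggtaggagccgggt
Slc1a2: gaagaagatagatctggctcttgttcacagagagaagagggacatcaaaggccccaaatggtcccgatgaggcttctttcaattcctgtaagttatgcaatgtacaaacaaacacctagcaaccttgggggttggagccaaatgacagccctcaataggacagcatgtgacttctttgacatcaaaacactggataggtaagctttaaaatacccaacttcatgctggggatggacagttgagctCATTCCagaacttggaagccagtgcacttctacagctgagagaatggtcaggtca

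The search covered both strands of 41 promoters, which belong to 24 of the 34 members. CAAAGTCCA, a sequence bound by the hepatocyte factor HNF4, stood in 2.44% of them (Slc3a1 alone) and in 0.475% of all 32851 promoters of the table. GGAATG, the core of the site of TEAD factors, stood in 19.5% of the members' promoters, 8 in number, against 14.7% of all. TGATGNAAT, the C/EBP-ATF composite, and the HNF1 motif were in 0 of the 41, and in 0.965% and 0.399% of all promoters. Each promoter printed above held a single match, so no matches overlapped there. The second listed Slc43a2 promoter held none.

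Totals ranged from 15112893 to 19731887 counts per library. Levels are given as CPM, the counts scaled to a common library size by trimmed means (TMM), and a call is an adjusted p under 0.05 over all genes tested. Summed CPM of 12 hepatocyte genes ran from 99169.8 to 104857 in early to 2494 to 3128 in BEC libraries, and that of 12 biliary genes from 981 to 1966 to 15092 to 18823. Summed CPM of 8 stellate cell and fibroblast genes was 110.4 to 321, 64.2 to 187, 48.6 to 84.1 and 62.1 to 107 from early to BEC, with none at 0 in every library. Summed CPM of 8 macrophage genes was 22.5 to 23.5 in early and 131 to 146 in BEC libraries, of which Csf1r held a mean of 127 CPM in BEC. Adgre1, the defining F4/80 antigen, averaged 0.135, 0.290, 0.381 and 0.522 CPM from early to BEC. Of 7 macrophage genes tested in BEC against early, 1 was higher (Csf1r), 1 lower (Cd68, log2 fold change -2.01) and 5 were not called. Endothelial genes summed to 13.9 to 22.4 CPM in early and 1.73 to 6.63 in BEC, and erythroid genes to 18.7 to 33.3 and 0.385 to 1.23; 0 genes of the neutrophil, B cell or T and NK cell lists reached the test. The mitochondrial share was 5.45% to 11.4% of counts in early libraries and 2.58% to 3.43% in BEC. The part of these differences in the results below was not tested. In bulk RNA, fewer cells of a type and less RNA per cell cannot be told apart.

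Amino acid transporters changed in both directions at each stage. Slc38a3, Slc38a4 and Slc7a2, carriers of glutamine, alanine and arginine abundant in hepatocytes, fell, while Slc43a2, Slc7a1 and Slc7a6 rose. At the first step, intermediate against early, 21 of the 34 members were called, 8 higher and 13 lower, beside 54.2% of all genes tested (28.6% higher and 25.5% lower). At the second step, full against intermediate, 20 were called, 10 higher and 10 lower, beside 40.7% of all genes (20.8% higher and 19.9% lower). BEC against full called 18 members, 9 higher and 9 lower, beside 21.2% of all genes (10.6% in each direction); the higher count fell to 5 without full replicate 2, full replicate 3 or BEC replicate 2. Full against early called 25 members, 12 higher and 13 lower, beside 71.1% (39% higher and 32.1% lower). BEC against early called 30, 15 higher and 15 lower, beside 72.9% (40% higher and 32.9% lower). The members' median log2 fold change was -0.23 at the first step, 0.03 at the second and -0.04 in BEC against full, beside 0.06, 0.01 and 0.00 over all genes. A total of 32 members differed among the 4 groups, beside 75.4% of all genes. The remaining 2 were Slc36a4 (adjusted p = 0.462) and Slc38a9 (adjusted p = 0.822).

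Both steps use the intermediate libraries, so the counts of courses below are descriptions. Lower at both steps were 9 members, Slc1a4, Slc7a2, Slc6a9, Slc6a12, Slc6a13, Slc36a1, Slc38a3, Slc38a4 and Slc38a10, beside 15.3% of all genes. Higher at both were 6, Slc7a5, Slc7a6, Slc7a1, Slc7a4, Slc38a1 and Slc43a2, beside 12.8%. Slc1a1 and Slc1a2 fell and then rose, a course of 1.01% of all genes, and 0 members rose and then fell (0.728%). Without intermediate replicate 1 or 2 or full replicate 1 or 2, only Slc1a2 of these 2 kept the course. A further 10 members were called at neither step, beside 35% of all genes. Slc7a1, Slc7a4 and Slc43a2 were also higher in BEC than in full, which makes 3 members higher at all 3 successive comparisons beside 3.29% of genes. Slc1a4, Slc6a9, Slc6a12, Slc6a13, Slc38a3 and Slc38a4 were lower at all 3, beside 3.53%.

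The first-step directions depend on scaling. Without TMM factors, on total counts only, the median of all genes moved from 0.06 to 0.72 at the first step, and the members' calls there became 19 higher and 7 lower. Under that scaling 7 of the 13 lower calls were kept (Slc1a1, Slc1a2, Slc1a4, Slc7a2, Slc6a12, Slc38a3 and Slc38a4). Slc6a9, Slc6a13, Slc36a1 and Slc43a1 were no longer called, and Slc38a7 and Slc38a10 were called higher. All 8 higher calls were kept, and Slc1a5, Slc7a8, Slc7a3, Slc6a6, Slc6a8, Slc36a4, Slc38a2, Slc38a6 and Slc38a9 were newly called higher. On total counts the second step had 12 higher and 9 lower, with Slc7a7 and Slc6a6 newly higher and Slc38a10 no longer called, full against early 19 and 10, BEC against early 21 and 12, and BEC against full 9 and 9. In BEC against early, Slc1a2, Slc6a19, Slc36a4 and Slc38a9 were newly called higher under that scaling, Slc38a2 and Slc38a10 turned from lower to higher, and Slc3a2 was no longer called. On that scale the log2 fold changes of the 34 members lay higher by 0.52 to 0.67 at the first step and by 0.72 to 0.88 in BEC against early, so falls were smaller there and rises larger. All directions and folds below are relative to the bulk of the genes, as TMM sets it.

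**Figure D1:**
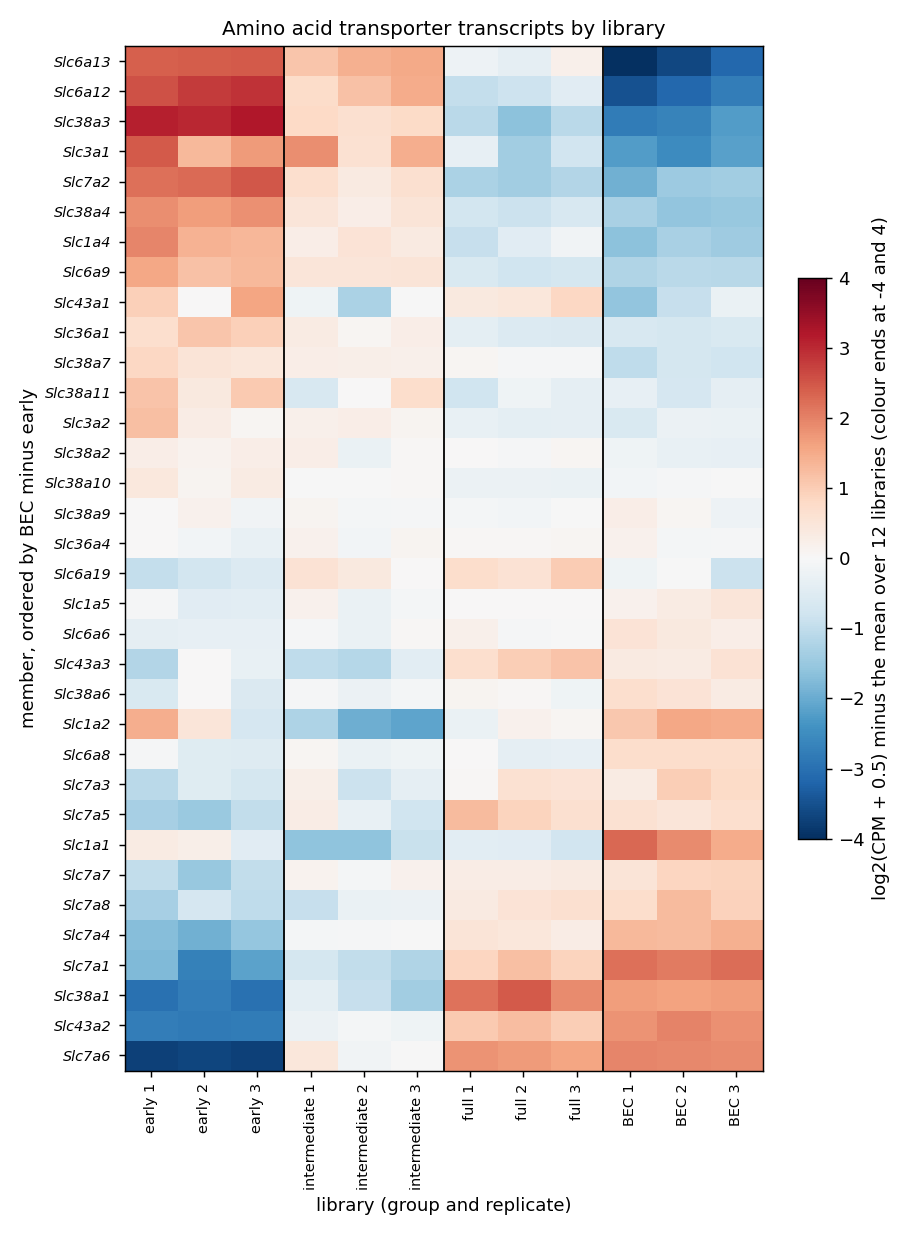
Heatmap of the 34 members (rows, sorted by their BEC mean minus their early mean) in the 12 libraries (columns, by group). Colour is log2(CPM + 0.5) minus the member's mean over all libraries; Slc38a3, Slc38a4 and Slc7a2 are high on the left, Slc43a2, Slc7a1 and Slc7a6 on the right, and Slc1a1 and Slc1a2 are lowest in the intermediate libraries.

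Glutamate transporters of the Slc1 family had the lowest level in intermediate cells. Slc1a2 (GLT-1), a sodium-coupled glutamate carrier that in the liver belongs to cells around the central vein, had 25.7, 13.005 and 5.504 CPM in early replicates 1 to 3. It had 3.58, 1.97 and 1.75 CPM in intermediate, 7.45, 10.3 and 9.58 in full and 19.7, 27.7 and 26.2 in BEC libraries. The early libraries were spread widely and overlapped the BEC and full ranges, while every intermediate library lay below every other one. Slc1a2 fell by 2.61 on the log2 scale (SE 0.49, adjusted p = 0.000930) at the first step and rose by 1.91 on the log2 scale (SE 0.49, adjusted p = 0.00893) at the second. Without early replicate 1 the first step was -1.92. BEC were higher than full by 1.43 on the log2 scale (SE 0.42, adjusted p = 0.0327), but this call was lost without any 1 of the full libraries or of BEC replicates 2 and 3, with adjusted p from 0.0763 to 0.119, and at 0.131 with no filter on low counts. BEC against early was not called (log2 fold change 0.73, SE 0.42, adjusted p = 0.138), although without early replicate 1 it was higher by 1.42 (adjusted p = 0.00292) and on total counts by 1.61 (adjusted p = 0.00428).

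Slc1a1 (EAAT3), the other glutamate carrier among the members, had 2.85, 2.64 and 1.46 CPM in early, 0.377, 0.384 and 0.962 in intermediate, 1.49, 1.47 and 1.09 in full and 12.7, 9.505 and 6.95 in BEC libraries. All 3 BEC libraries were above all others, and all 3 intermediate libraries below. The intermediate libraries held only 6, 7 and 17 counts of Slc1a1, and the full libraries 35, 33 and 25. It fell by 1.99 on the log2 scale (SE 0.42, adjusted p = 0.00112) at the first step, with a log2 fold change of -2.58 without intermediate replicate 3. It rose by 1.22 on the log2 scale (SE 0.42, adjusted p = 0.0327) at the second step; that call was lost without intermediate replicate 1 or 2 or full replicate 1 or 2 (adjusted p from 0.0809 to 0.132). BEC exceeded full by 2.84 on the log2 scale (SE 0.34, adjusted p = 3.00e-05) and early by 2.07 on the log2 scale (SE 0.34, adjusted p = 7.06e-05). Exons of an antisense gene cover 31.9% of the exon bases of Slc1a1 in GENCODE M21, and the strand setting of the counting is not given in the sources used here, so reads of the pair cannot be told apart. The intermediate group was below both early and BEC for these 2 members, beside 1.98% of all genes, while 0 members had intermediate above both (3.31%) or full below both (1.68%).

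Markers of the same pericentral cells moved at the first step as well: all 10 in the list fell, with a median log2 fold change of -2.84 beside 0.06 over all genes. The other hepatocyte lists fell as well, the periportal one in 10 of 10 genes (median -3.16) and the general one in 12 of 12 (median -2.26). Early replicate 1, the library highest in Slc1a2, was also the highest in Glul, the glutamine synthetase, at 153, 84.6 and 84.7 CPM in the 3 early libraries. It led as well in Oat (ornithine aminotransferase, 123, 60.4 and 57.6 CPM), in Lhpp (31.0, 16.4 and 18.1) and in the Wnt receptor Lgr5 (10.4, 2.91 and 2.59). In all it was the highest early library for 9 of the 10 pericentral markers, the exception being Cyp1a2 (841, 659 and 1048 CPM), against 1 of 10 periportal and 3 of 12 general hepatocyte genes. Glul fell by 0.67 on the log2 scale (SE 0.19, adjusted p = 0.0108) at the first step and was higher in BEC than in full by 0.90 on the log2 scale (SE 0.19, adjusted p = 0.00464), with 69.6, 69.9 and 66.9 CPM in full and 118, 132 and 135 in BEC libraries. In that last comparison Glul was the 1 marker of 10 that was higher, Cyp27a1 was lower (log2 fold change -2.47, adjusted p = 7.50e-07) and 8 were not called, with a median of -0.13 over the list. Among those not called, Oat had a log2 fold change of 0.38 (adjusted p = 0.444) and Lgr5 of -2.40 (adjusted p = 0.130). The part of pericentral cells in the Slc1a2 values was not tested.

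**Figure D2:**
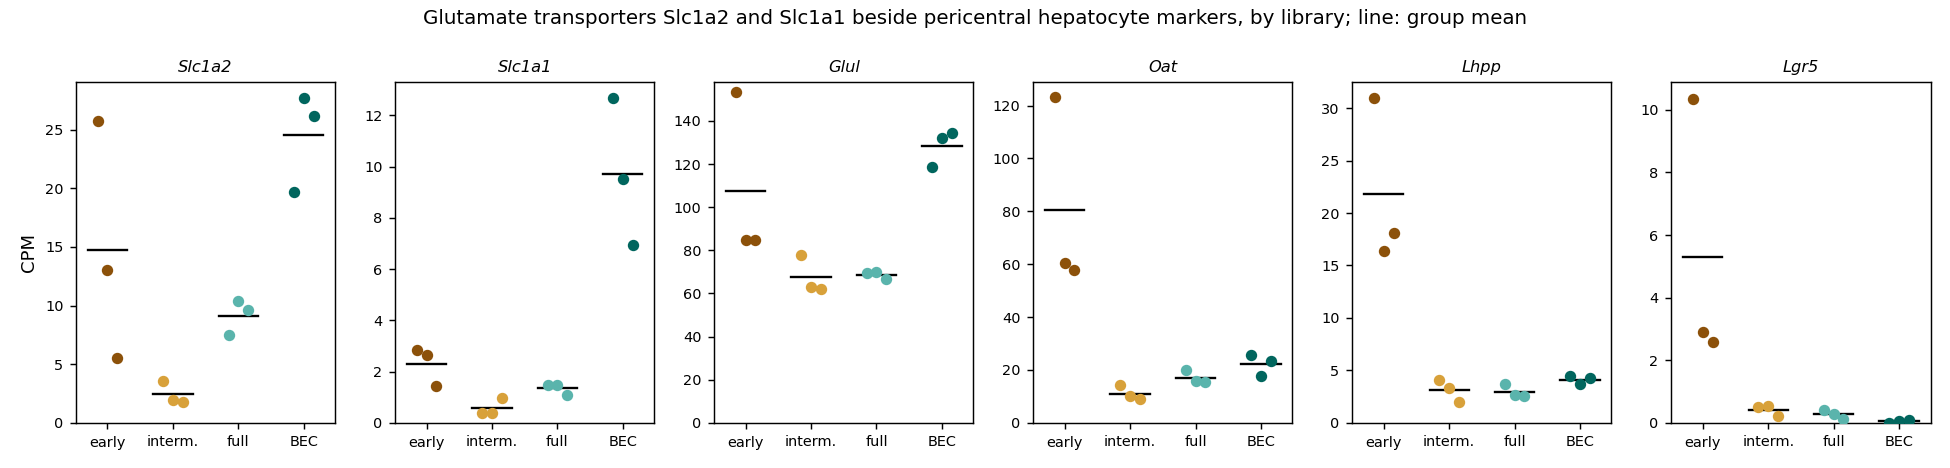
CPM (linear axes) of Slc1a2, Slc1a1 and the pericentral markers Glul, Oat, Lhpp and Lgr5 in each library, with group means. Slc1a2 and Slc1a1 are lowest in the intermediate group and higher in full and BEC, and Slc1a1 is above its early level in BEC; early replicate 1 is the highest early library for Slc1a2 and for each of the 4 markers.

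The neutral exchangers of the Slc1 family took separate courses. Slc1a4 (ASCT1), an exchanger of alanine, serine and cysteine, had 55.1, 37.2 and 35.6 CPM in early and 4.14, 5.31 and 4.798 in BEC libraries. Between them it ranged over 16.9 to 20.4 CPM in intermediate and 7.11 to 12.6 in full libraries. It fell by 1.21 on the log2 scale (SE 0.20, adjusted p = 0.000149), by 0.91 on the log2 scale (SE 0.21, adjusted p = 0.00277) and, in BEC against full, by 1.05 on the log2 scale (SE 0.22, adjusted p = 0.00287). Slc1a5 (ASCT2), the glutamine exchanger of many growing cells, stayed within 7.73 to 10.4 CPM in early and 10.8 to 10.9 in full and was called in none of these 3 comparisons with TMM factors; on total counts the first step was higher (0.93, adjusted p = 0.000203). In BEC it had 12.1 to 14.9 CPM, higher than early by 0.65 on the log2 scale (SE 0.17, adjusted p = 0.00276).

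From early to BEC both heavy chains fell and all 4 light chains rose. Slc3a2 (CD98 heavy chain), the partner of the light chains Slc7a5, Slc7a6, Slc7a7 and Slc7a8, had 154, 80.6 and 69.3 CPM in early, 75.9, 78.6 and 71.8 in intermediate, 53.9, 50.2 and 50.9 in full and 43.2, 55.9 and 55.2 in BEC libraries. Early replicate 1 stood above the others, and the full and BEC ranges overlapped. BEC were lower than early by 0.98 on the log2 scale (SE 0.24, adjusted p = 0.00322); on total counts the value was -0.10 (adjusted p = 0.690). At the first step it was not called (log2 fold change -0.43, SE 0.24, adjusted p = 0.157), and without early replicate 3 it was lower by 0.63 (adjusted p = 0.0255). The second step was not called either (log2 fold change -0.55, SE 0.24, adjusted p = 0.0922), though every full library was below every intermediate one; it was called lower without early replicate 1 (adjusted p = 0.000578), without early replicate 3 (adjusted p = 0.0381) and in the fit of these 2 groups alone (adjusted p = 0.000273).

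Slc3a1 (rBAT), the heavy chain of cystine and basic amino acid exchange, had 62.7, 27.8 and 37.3 CPM in early, 40.9, 17.2 and 31.0 in intermediate, 8.68, 3.92 and 6.30 in full and 1.97, 1.54 and 2.06 in BEC libraries. Replicate 1 was highest and replicate 2 lowest in early, intermediate and full, and early and intermediate overlapped. The first step was not called (log2 fold change -0.53, SE 0.37, adjusted p = 0.252), whereas with the replicate number as a block it was lower by 0.53 (adjusted p = 0.00369). The second step brought a fall of 2.23 on the log2 scale (SE 0.39, adjusted p = 0.000981). BEC were lower than full by 1.76 on the log2 scale (SE 0.46, adjusted p = 0.0193), a call lost without full replicate 1 or 3 or any 1 BEC library (adjusted p from 0.0512 to 0.0763) and with no filter (adjusted p = 0.0735). Its light chain Slc7a9 had at most 11 counts in a library and is not a member. Exons of Prepl, on the opposite strand, overlap 26.5% of the exon bases of Slc3a1; Prepl had 48.6 ± 2.03 CPM in early and 63.1 ± 7.02 in BEC (SD, n = 3).

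Among the light chains Slc7a6 changed most. Slc7a6 (y+LAT2), which exchanges basic for neutral amino acids, had 2 counts in each early library, under the floor of 3 counts. It had 11.6, 7.51 and 8.15 CPM in intermediate, 29.9, 27.8 and 25.7 in full and 33.3, 33.1 and 32.2 in BEC libraries. Set against the highest early floor of 0.273 CPM, it was at least 33.3-fold higher in intermediate (adjusted p = 1.70e-09), at least 102-fold higher in full and at least 120-fold higher in BEC (adjusted p = 5.09e-12). The second step added 1.61 on the log2 scale (SE 0.15, adjusted p = 1.08e-06), and BEC did not pass the test against full (log2 fold change 0.24, SE 0.14, adjusted p = 0.268).

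Slc7a5 (LAT1), the large neutral exchanger of dividing cells, had 2.61, 2.27 and 3.40 CPM in early, 9.05, 5.75 and 3.96 in intermediate, 18.3, 14.003 and 11.7 in full and 11.2, 10.4 and 11.9 in BEC libraries. It rose by 1.17 on the log2 scale (SE 0.30, adjusted p = 0.00384) and by 1.23 on the log2 scale (SE 0.26, adjusted p = 0.00138). Full and BEC overlapped and did not pass the test (log2 fold change -0.39, SE 0.24, adjusted p = 0.326). Slc7a7 (y+LAT1), the exchanger lost in lysinuric protein intolerance, ranged from 6.37 to 9.41 CPM in early to 27.6 to 35.4 in BEC. It rose by 1.26 on the log2 scale (SE 0.16, adjusted p = 9.19e-06) at the first step; its rise in BEC against full (0.45, adjusted p = 0.0325) was lost without any 1 full library or BEC replicate 2 or 3 (adjusted p up to 0.130). Slc7a8 (LAT2) stayed low, from 0.158 to 0.546 CPM in early to 2.17 to 3.45 in BEC. It rose by 1.35 on the log2 scale (SE 0.39, adjusted p = 0.0131) at the second step; without intermediate replicate 1 the adjusted p was 0.0526. Its first step was not called (log2 fold change 1.10, SE 0.52, adjusted p = 0.0875) but was higher without early replicate 2 (adjusted p = 0.0449) or intermediate replicate 1 (adjusted p = 0.0336) and on total counts (1.75, adjusted p = 0.00706).

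Levels of different genes were compared in CPM per kilobase of the longest GENCODE M21 transcript (GRCm38). On this scale the 4 light chains together stood at 4.58 ± 0.840 (SD, n = 3) in early, 13.2 ± 1.67 in intermediate, 22.5 ± 1.24 in full and 26.9 ± 1.90 in BEC. Slc3a2 stood at 35.97 ± 16.3, 26.8 ± 1.22, 18.4 ± 0.695 and 18.3 ± 2.54. The ratio of the light chains to Slc3a2 was 0.142 ± 0.0613 in early, 0.494 ± 0.0700 in intermediate, 1.22 ± 0.0316 in full and 1.48 ± 0.112 in BEC, and no 2 groups overlapped. Slc7a11, also a partner of Slc3a2, is not in this sum.

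**Figure D3:**
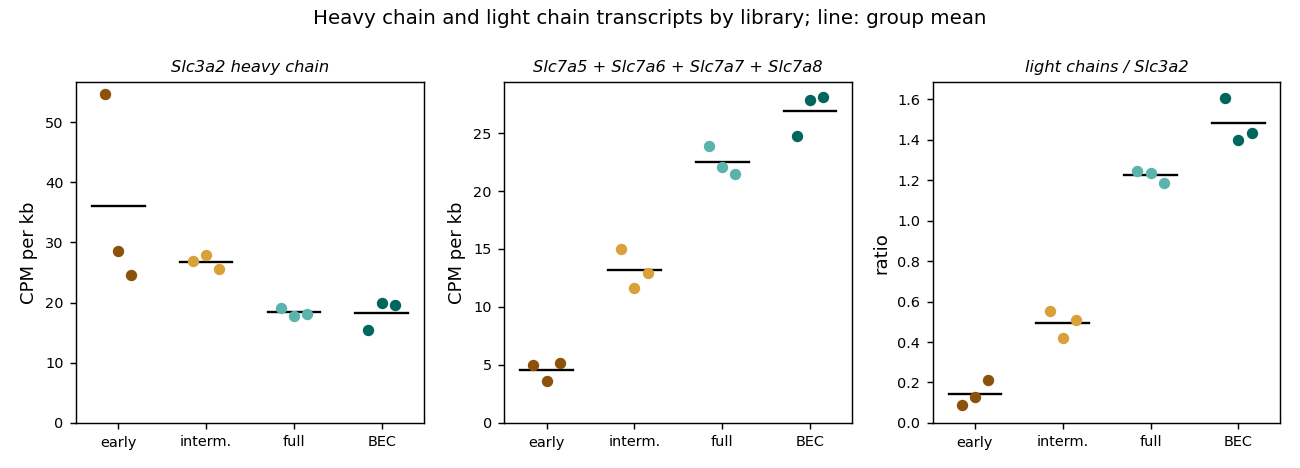
CPM per kb of Slc3a2, summed CPM per kb of its 4 light chains Slc7a5, Slc7a6, Slc7a7 and Slc7a8, and their ratio, in each library with group means (linear axes). The ratio averages 0.142 in early and 1.48 in BEC, and no 2 groups overlap.

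The main cationic transporters of hepatocytes and of other cells moved in opposite directions. Slc7a2 (CAT2), the arginine and lysine carrier of hepatocytes, had 994, 1034 and 1198 CPM in early, 342, 275 and 339 in intermediate, 89.6, 81.3 and 95.9 in full and 56.7, 77.8 and 81.8 in BEC libraries. It fell by 1.75 on the log2 scale (SE 0.14, adjusted p = 1.13e-07) and by 1.84 on the log2 scale (SE 0.14, adjusted p = 2.43e-07), after which full and BEC did not pass the test (log2 fold change -0.30, SE 0.14, adjusted p = 0.153). Slc7a1 (CAT1), the carrier of the same substrates in most other cells, had 3.64, 1.64 and 2.67 CPM in early, 8.17, 6.52 and 5.55 in intermediate, 25.0, 31.8 and 25.4 in full and 64.1, 59.1 and 64.7 in BEC libraries, with no overlap between groups. It rose by 1.33 on the log2 scale (SE 0.23, adjusted p = 0.000190), by 2.02 on the log2 scale (SE 0.18, adjusted p = 1.08e-06) and by 1.19 on the log2 scale (SE 0.17, adjusted p = 0.000106). Per kilobase, the ratio of Slc7a1 to Slc7a2 went from 0.00274 ± 0.00117 in early through 0.0235 ± 0.00472 and 0.343 ± 0.0767 to 0.984 ± 0.226 in BEC (SD, n = 3 each).

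Slc7a4, a relative of these carriers whose substrate is unsettled, had 5.14, 4.37 and 5.75 CPM in early, 16.9, 17.2 and 17.7 in intermediate, 25.7, 24.3 and 22.1 in full and 44.6, 43.3 and 48.3 in BEC libraries. It rose by 1.76 on the log2 scale (SE 0.13, adjusted p = 4.02e-08), by 0.48 on the log2 scale (SE 0.11, adjusted p = 0.00277) and by 0.92 on the log2 scale (SE 0.11, adjusted p = 2.07e-05). Exons of P2rx6, on the opposite strand, overlap 13.3% of its exon bases. P2rx6 also had a higher mean in each successive group, at 0.0264 ± 0.0457, 0.887 ± 0.241, 2.38 ± 0.370 and 5.90 ± 1.61 CPM from early to BEC (SD, n = 3), and the part of its reads in the Slc7a4 counts was not tested. Slc7a3 (CAT3) stayed at or under 1.91 CPM in every library. It was called in neither step, was higher in BEC than in early by 2.702 on the log2 scale (SE 0.65, adjusted p = 0.00161), and without intermediate replicate 1 was also higher at the second step (adjusted p = 0.0274). On total counts its first step was higher (1.81, adjusted p = 0.0355).

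The Slc6 carriers, coupled to sodium and chloride, took different courses. Slc6a13 (GAT2) and Slc6a12 (BGT1), which take up GABA with taurine and betaine respectively, were lower at every successive comparison. Slc6a13 had 397, 411 and 418 CPM in early, 162, 205 and 218 in intermediate, 65.7, 59.0 and 87.0 in full and 3.66, 5.64 and 8.09 in BEC libraries. In BEC against full it fell by 3.601 on the log2 scale (SE 0.24, adjusted p = 8.32e-07). It fell by 1.07 on the log2 scale (SE 0.21, adjusted p = 0.00100) at the first step and by 1.47 on the log2 scale (SE 0.21, adjusted p = 0.000177) at the second, and on total counts the first step was -0.40 (adjusted p = 0.0989). The largest of the 3 steps thus lay between full and BEC, where Slc6a13 differed 12.1-fold. Slc6a12 had 56.6, 68.1 and 72.5 CPM in early, 15.8, 21.8 and 27.2 in intermediate, 4.55, 5.08 and 6.69 in full and 0.385, 0.606 and 0.960 in BEC libraries, with no overlap between groups. It fell by 1.60 on the log2 scale (SE 0.20, adjusted p = 1.60e-05), by 1.99 on the log2 scale (SE 0.22, adjusted p = 9.01e-06) and by 3.04 on the log2 scale (SE 0.31, adjusted p = 8.95e-06).

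Slc6a6, the taurine transporter, and Slc6a8, the creatine transporter, went the other way and were highest in BEC. Slc6a8 had 97.0, 70.6 and 69.3 CPM in early, 105, 82.8 and 88.9 in intermediate, 101, 77.0 and 78.8 in full and 164, 163 and 162 in BEC libraries. It was called at neither step and was higher in BEC than in full by 0.93 on the log2 scale (SE 0.14, adjusted p = 0.000200); with the replicate block it was also higher at the first step (0.23, adjusted p = 0.0475), as it was without early replicate 1 (0.40, adjusted p = 0.0157) and on total counts (0.89, adjusted p = 4.17e-05). Slc6a6 ranged over 423 to 436 CPM in early, 453 to 564 in intermediate, 532 to 627 in full and 661 to 793 in BEC. BEC were higher than early by 0.75 on the log2 scale (SE 0.11, adjusted p = 1.52e-05). Its first step missed the threshold (log2 fold change 0.26, SE 0.11, adjusted p = 0.0511) and passed it with the block (adjusted p = 0.0321), with no filter (adjusted p = 0.0182) and without BEC replicate 1 or 3, full replicate 1 or intermediate replicate 2 (adjusted p from 0.0201 to 0.0472). On total counts it was higher at the first step (0.92, adjusted p = 1.76e-06) and at the second (0.34, adjusted p = 0.0148). BEC against full was higher by 0.36 on the log2 scale (SE 0.11, adjusted p = 0.0258), and not without BEC replicate 1 or 2 or full replicate 2 or 3 (adjusted p from 0.0728 to 0.114).

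Slc6a9 (GlyT1), a glycine transporter, ranged over 57.0 to 74.1 CPM in early, 35.3 to 36.2 in intermediate, 14.4 to 16.2 in full and 10.7 to 11.6 in BEC, with no overlap. It fell by 0.86 on the log2 scale (SE 0.10, adjusted p = 7.11e-06), by 1.22 on the log2 scale (SE 0.11, adjusted p = 8.22e-07) and by 0.45 on the log2 scale (SE 0.11, adjusted p = 0.00754); on total counts the first was -0.19 (adjusted p = 0.108). Of its exon bases 30.2% are overlapped by Ccdc24, Gm17114 and B4galt2 on the opposite strand. B4galt2 had 0.778 ± 0.194, 18.7 ± 2.36, 29.7 ± 3.18 and 20.3 ± 3.63 CPM from early to BEC (SD, n = 3), lowest in early, where Slc6a9 was highest; Ccdc24 averaged at most 0.352 CPM in a group and Gm17114 had 0. The part of their reads in the Slc6a9 counts was not tested. Slc6a19 (B0AT1), the neutral amino acid carrier of gut and kidney brush borders, had 0.475, 0.637 and 0.809 CPM in early, 2.33, 1.97 and 1.42 in intermediate, 2.60, 2.36 and 3.32 in full and 1.20, 1.40 and 0.548 in BEC libraries. It was the only member that was higher in full than in both early and BEC, beside 4.15% of all genes. The rise at the first step was 1.56 on the log2 scale (SE 0.42, adjusted p = 0.00596). BEC were lower than full by 1.39 on the log2 scale (SE 0.36, adjusted p = 0.0116), and not without BEC replicate 3 (adjusted p = 0.0564) or full replicate 3 (adjusted p = 0.0577). BEC against early was not called (log2 fold change 0.71, SE 0.44, adjusted p = 0.157) but was higher without BEC replicate 3 (1.02, adjusted p = 0.0413) and on total counts (1.56, adjusted p = 0.00395).

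Of 4 carriers known from lysosomes and other inner membranes, Slc36a1 and Slc38a7 were lower in BEC than in early, and Slc36a4 and Slc38a9 were called in no comparison with TMM factors. Slc36a1 (PAT1), which moves small amino acids out of lysosomes with protons, ranged from 68.3 to 90.7 CPM in early to 25.9 to 27.5 in BEC. It fell by 0.70 on the log2 scale (SE 0.11, adjusted p = 7.97e-05) and by 0.75 on the log2 scale (SE 0.11, adjusted p = 8.29e-05); on total counts the first was -0.0317 (adjusted p = 0.812). Slc36a4 kept between 17.2 and 24.2 CPM in all 12 libraries and was called in none of the comparisons with TMM factors; on total counts it was higher in intermediate than in early (0.86, adjusted p = 1.85e-05) and in BEC than in early (1.01, adjusted p = 1.85e-06). Slc38a9, the arginine sensor that reports to mTORC1, kept between 19.6 and 27.5 CPM and was likewise not called; on total counts it was higher at the first step (0.65, adjusted p = 0.000478) and in BEC against early (0.91, adjusted p = 1.36e-05). Slc38a7, a lysosomal exporter of glutamine and asparagine, ranged from 43.2 to 55.2 CPM in early to 15.2 to 19.1 in BEC. It was lower in BEC than in full by 0.85 on the log2 scale (SE 0.12, adjusted p = 8.60e-05), and its first-step fall (-0.37, adjusted p = 0.0120) was lost without early replicate 1 (adjusted p = 0.0702) and turned into a rise on total counts (0.29, adjusted p = 0.0312).

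The glutamine and alanine carriers of the Slc38 family held the largest fall in CPM among the members. Slc38a3 (SNAT3), the system N carrier through which hepatocytes exchange glutamine, had 1759.6, 1649 and 1859 CPM in early, 348, 311 and 342 in intermediate, 95.1, 63.5 and 95.8 in full and 28.3, 31.0 and 42.0 in BEC libraries. No 2 groups overlapped. It fell by 2.40 on the log2 scale (SE 0.17, adjusted p = 3.79e-08), by 1.98 on the log2 scale (SE 0.17, adjusted p = 6.26e-07) and by 1.33 on the log2 scale (SE 0.16, adjusted p = 4.19e-05), and BEC were 52.0-fold lower than early, or 28.5-fold on total counts. Slc38a4 (SNAT4), the liver form of system A, ranged over 1124 to 1282 CPM in early, 422 to 510.2 in intermediate, 196 to 227 in full and 118 to 145 in BEC. It fell by 1.36 on the log2 scale (SE 0.11, adjusted p = 1.39e-07), by 1.17 on the log2 scale (SE 0.11, adjusted p = 1.50e-06) and by 0.72 on the log2 scale (SE 0.11, adjusted p = 0.000237).

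Slc38a1 (SNAT1), a system A carrier of other epithelia and neurons, was at or near 0 in early cells and rose at both steps. It had 0, 1 and 0 counts in the early libraries, then 2.58, 1.59 and 1.02 CPM in intermediate, 17.7, 21.5 and 14.2 in full and 12.1, 11.6 and 12.3 in BEC libraries. Against the early floor of 0.273 CPM it was at least 6.34-fold higher in intermediate (adjusted p = 1.71e-05), at least 65.2-fold in full and at least 44.0-fold in BEC (adjusted p = 3.89e-09). It rose by 3.37 on the log2 scale (SE 0.28, adjusted p = 5.31e-07) at the second step. All full libraries were above all BEC libraries, yet BEC against full was not called (log2 fold change -0.57, SE 0.24, adjusted p = 0.113); it was lower with no filter (adjusted p = 0.0449) and in the fit of these 2 groups (adjusted p = 0.0162).

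Slc38a2 (SNAT2), the system A carrier induced by amino acid shortage in many cells, ranged only from 154 to 169.5 CPM in early to 113 to 126 in BEC. BEC were lower than early by 0.48 on the log2 scale (SE 0.11, adjusted p = 0.00158), a direction that turned on total counts (0.39 higher, adjusted p = 0.00527). BEC against full was not called (log2 fold change -0.27, SE 0.11, adjusted p = 0.118) and was lower with the replicate block (adjusted p = 0.0420) and in the fit of these 2 groups (adjusted p = 0.0197); the first step, not called, was lower without intermediate replicate 1 (-0.31, adjusted p = 0.0280) and higher on total counts (0.49, adjusted p = 0.00150). Slc38a6, whose cargo is less well known, ranged from 7.67 to 12.1 CPM in early to 15.3 to 19.5 in BEC. BEC were higher than early by 0.93 on the log2 scale (SE 0.18, adjusted p = 0.000279) and than full by 0.55 on the log2 scale (SE 0.17, adjusted p = 0.0325), the latter not without any 1 full library or BEC replicate 1 or 2 (adjusted p up to 0.139). Its first step was not called (log2 fold change 0.27, SE 0.18, adjusted p = 0.228) but was higher without early replicate 2 (0.51, adjusted p = 0.0218) and on total counts (0.94, adjusted p = 0.000347).

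Slc38a10, another little-studied member, ranged from 212 to 258 CPM in early to 163 to 166 in full. Its small falls were 0.29 (adjusted p = 0.00972) and 0.25 (adjusted p = 0.0297) on the log2 scale. The first turned into a rise on total counts (0.38, adjusted p = 0.00104) and was not called with no filter (adjusted p = 0.0679). The second was lost without any 1 of the intermediate or full libraries (adjusted p from 0.0559 to 0.0872), with no filter (adjusted p = 0.107) and with median-of-ratios factors (adjusted p = 0.0656). Slc38a11 had at most 1.42 CPM in any library, was called at neither step and was lower in BEC than in early by 2.94 on the log2 scale (SE 0.85, adjusted p = 0.00594).

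In the Slc43 family, facilitators of large neutral amino acids, Slc43a2 (LAT4) had the largest gain in CPM of all members. It had 32.6, 31.3 and 31.4 CPM in early, 189.7, 213 and 199 in intermediate, 458, 522 and 445 in full and 783, 883 and 799 in BEC libraries. The 3 libraries of each group lay close together and no groups overlapped. It rose by 2.66 on the log2 scale (SE 0.10, adjusted p = 1.10e-10), by 1.24 on the log2 scale (SE 0.09, adjusted p = 1.63e-07) and by 0.79 on the log2 scale (SE 0.09, adjusted p = 1.79e-05), so that BEC were 25.9-fold higher than early, or 47.2-fold on total counts. Exons of the antisense gene Gm45606 overlap 9.18% of its exon bases, and Gm45606 had 0.0573 ± 0.0499 CPM in early and 3.55 ± 1.01 in BEC (SD, n = 3). Slc43a1 (LAT3) had 2.37, 1.0004 and 3.88 CPM in early, 0.817, 0.110 and 0.962 in intermediate, 1.45, 1.52 and 2.14 in full and 0, 0.280 and 0.731 in BEC libraries.

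The Slc43a1 calls at the first step and in BEC against full were unstable. The first step was lower by 1.95 on the log2 scale (SE 0.77, adjusted p = 0.0475), and it was not called without early replicate 1 or 3, intermediate replicate 1 or 2, any 1 full library or BEC replicate 2 (adjusted p from 0.0630 to 0.189), nor with no filter (adjusted p = 0.108). BEC against full was not called (log2 fold change -2.30, SE 0.80, adjusted p = 0.0585) but was lower with the replicate block (-2.46, adjusted p = 0.0115), with DESeq2 (adjusted p = 0.0204), in the fit of these 2 groups (adjusted p = 0.0286), without intermediate replicate 2 (adjusted p = 0.0387) and without BEC replicate 3 (-3.53, adjusted p = 0.0219). BEC against early was lower by 2.81 on the log2 scale (SE 0.81, adjusted p = 0.00669), and the log2 fold change was -4.04 without BEC replicate 3.

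Slc43a3, the purine base carrier, had 2.14, 5.46 and 4.37 CPM in early, 2.45, 2.19 and 3.96 in intermediate, 8.93, 11.2 and 12.6 in full and 7.18, 6.90 and 8.41 in BEC libraries. Every full library was above every other one. It rose by 1.92 on the log2 scale (SE 0.30, adjusted p = 0.000130) at the second step and was higher in BEC than in early by 0.92 on the log2 scale (SE 0.30, adjusted p = 0.0125), the latter not without early replicate 1 (adjusted p = 0.0517). The first step was lower without early replicate 1 (-0.77, adjusted p = 0.0327), and BEC against full was lower in the fit of these 2 groups (-0.56, adjusted p = 0.0332).

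**Figure D4:**
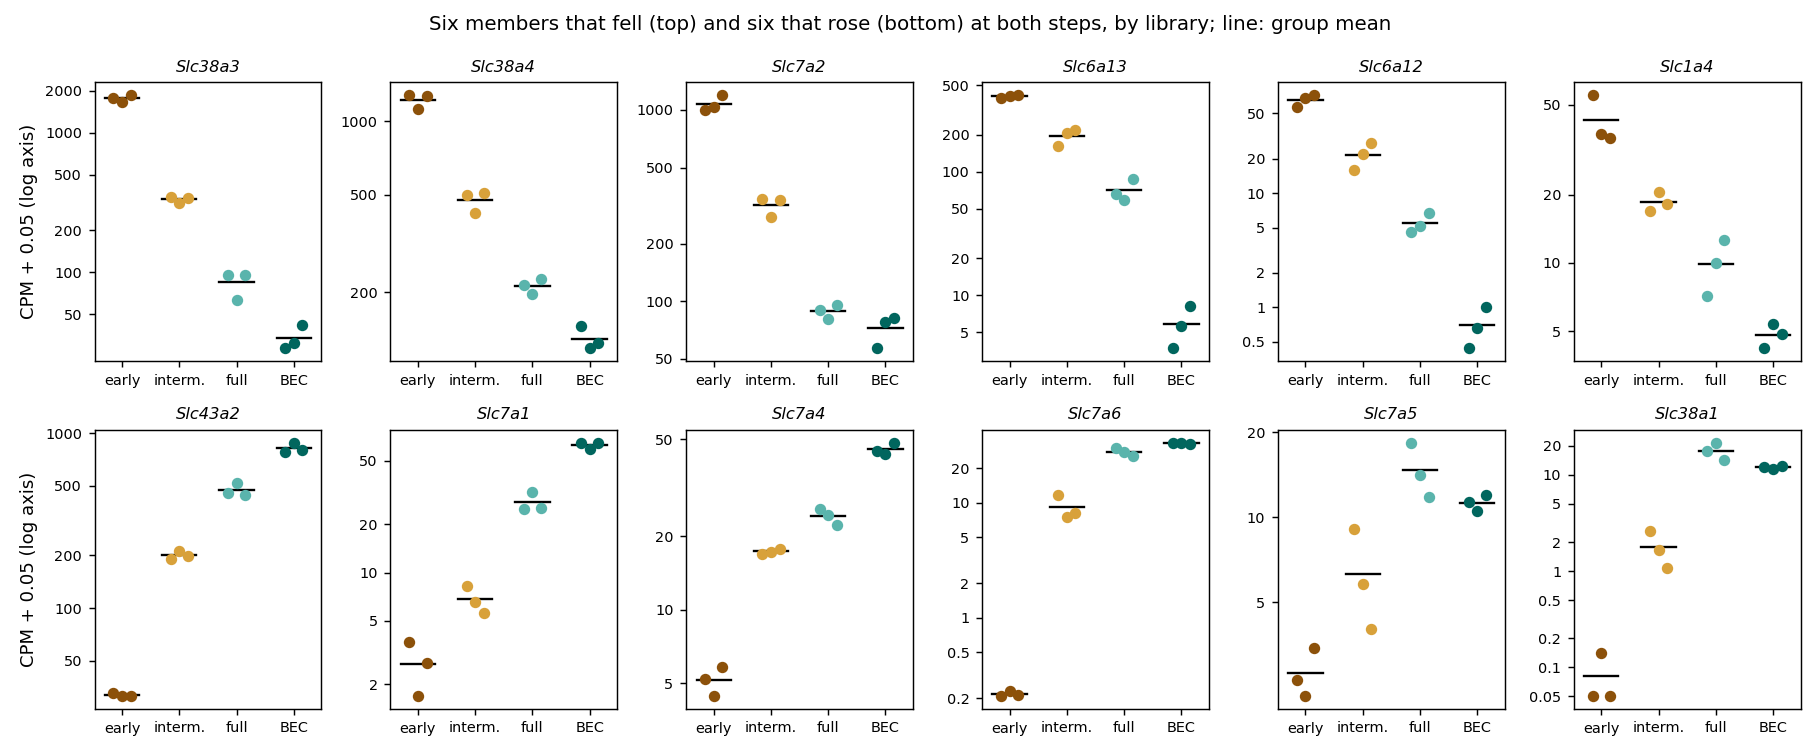
CPM + 0.05 (log axis) in each library of the 6 members with the largest falls called at both steps (top: Slc38a3, Slc38a4, Slc7a2, Slc6a13, Slc6a12 and Slc1a4) and of the 6 that rose at both (bottom: Slc43a2, Slc7a1, Slc7a4, Slc7a6, Slc7a5 and Slc38a1), with group means. The first-step fall of Slc6a13 is not called on total counts; the early counts of Slc7a6 and Slc38a1 are at or under the floor of 3 counts.

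Summed over the 34 members, the level per kilobase was 1521 ± 76.7 (SD, n = 3) in early, 674 ± 41.8 in intermediate, 463 ± 18.7 in full and 498 ± 6.83 in BEC. On total counts, a check added after the data were seen, the sums were closer together, at 1003 ± 58.8, 705 ± 38.6, 556 ± 15.8 and 598 ± 9.93. In early cells the order of mean CPM per kilobase was led by Slc38a3 (557), Slc38a4 (311) and Slc6a13 (183), followed by Slc7a2 (136), Slc6a6 (69.6) and Slc38a10 (52.1); no neighbours among these 6 overlapped. The first 3 held 69.1 ± 1.03% of the early sum, and 46.7 ± 1.34%, 24.2 ± 2.73% and 9.26 ± 0.777% in intermediate, full and BEC. In BEC the order was led by Slc6a6 (117 ± 10.7) and Slc43a2 (115 ± 7.50), whose ranges overlapped, then Slc6a8 (41.2) and Slc38a10 (40.8), which overlapped as well, and Slc38a4 (32.7). The ratio of Slc43a2 to Slc38a3 per kilobase was 0.00800 ± 0.000483 in early and 11.04 ± 2.30 in BEC.

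**Figure D5:**
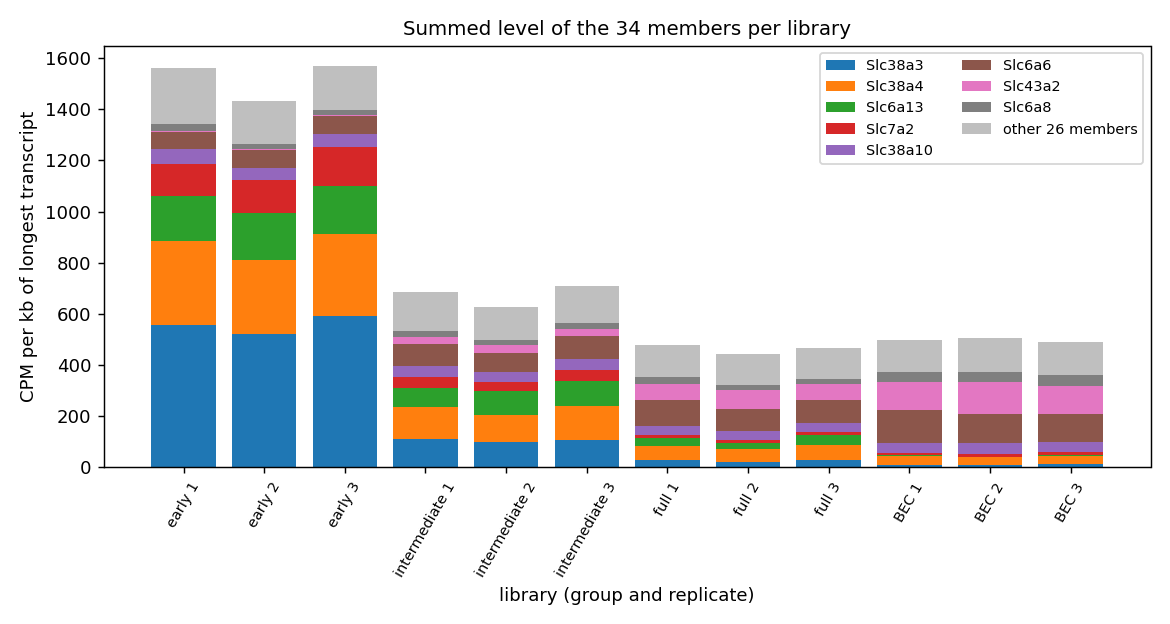
Stacked bars from 0 of CPM per kb (linear axis) for 8 named members and the other 26 together, 1 bar per library. Early bars are filled mostly by Slc38a3, Slc38a4 and Slc6a13 (69.1% on average), which hold 9.26% on average of the BEC bars, where Slc6a6 and Slc43a2 are the largest named parts.

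Amino acid carriers of a list outside the rule, mostly from other families, mostly fell. Of 16 tested, 1 was higher and 10 lower at the first step, and 3 were higher and 11 lower in BEC against early, with a median log2 fold change there of -1.33 beside 0.14 over all genes. Over all genes, 28.6% were higher and 25.5% lower at the first step, and 40% higher and 32.9% lower in BEC against early. Slc25a13, the mitochondrial aspartate and glutamate carrier of the liver, had 267 ± 44.6 CPM in early and 37.1 ± 2.38 in BEC (SD, n = 3), and fell by 1.59 on the log2 scale (SE 0.12, adjusted p = 5.99e-08) at the first step; it was chosen for its abundance after its values were seen. Slc17a8, a vesicular glutamate carrier, went from 6.64 to 8.17 CPM in early to 0.0482 to 0.411 in BEC and fell by 2.28 on the log2 scale (SE 0.38, adjusted p = 0.000149) at the first step. Slc6a20a is a proline carrier of the Slc6 family whose symbol ends in a letter, so the rule did not match it. It had 0 counts in every early library and 1.11, 1.63 and 1.33 CPM in BEC libraries (adjusted p = 6.10e-05 for BEC against early). The peptide carrier Slc15a1 had 0 counts in early and intermediate libraries and 1.11, 1.12 and 0.731 CPM in BEC libraries (adjusted p = 0.000557). Slc15a2, the other peptide carrier, had 4.75, 3.18 and 0 CPM in early and 43.4, 32.6 and 28.6 in BEC libraries and was higher in BEC than in early by 3.72 on the log2 scale (SE 1.26, adjusted p = 0.0244).

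Of 8 accessory proteins that bring such carriers to the surface or regulate them, 5 were higher and 1 lower at the first step. In BEC against early 5 were higher and 2 lower. All genes had 28.6% higher and 25.5% lower at the first step, and 40% higher and 32.9% lower in BEC against early. Cltrn is a known surface partner of Slc6a19. Cltrn had 0 counts in the early libraries, then 0.189, 0.0548 and 0.170 CPM in intermediate, 2.38, 1.56 and 2.32 in full and 3.81, 3.17 and 3.84 in BEC libraries. Its mean was highest in BEC, where Slc6a19 was lower than in full. Cd44 rose by 2.55 on the log2 scale (SE 0.33, adjusted p = 7.72e-05) at the first step and by 1.05 on the log2 scale (SE 0.31, adjusted p = 0.0211) at the second, and the scaffold Pdzk1 fell by 2.20 on the log2 scale (SE 0.36, adjusted p = 0.000506) at the second.

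Of 20 genes of the amino acid response driven by Atf4, all of them tested, 7 were higher and 10 lower at the first step, and 4 higher and 4 lower at the second, beside 28.6% and 25.5% of all genes at the first and 20.8% and 19.9% at the second. Their median log2 fold change in BEC against early was -0.75 beside 0.14 over all genes. The most changed were Cth, the enzyme that makes cysteine, at 370.3 ± 23.7 CPM in early and 4.70 ± 1.54 in BEC (SD, n = 3), which fell by 3.35 on the log2 scale (SE 0.24, adjusted p = 3.00e-07) at the first step and 2.87 on the log2 scale (SE 0.25, adjusted p = 4.39e-06) at the second; and Nupr1, a stress regulator, which rose by 1.46 on the log2 scale (SE 0.27, adjusted p = 0.000551) at the second step and, in BEC against full, by 2.25 on the log2 scale (SE 0.23, adjusted p = 7.81e-06). Shmt2 and Eif4ebp1 were lower in all 3 successive comparisons, by 2.31 and 1.05 on the log2 scale at the first. Of 24 genes of amino acid sensing at the lysosome, 4 were higher and 11 lower at the first step, and 4 higher and 17 lower in BEC against early, where 40% of all genes were higher and 32.9% lower. Rragb, a Rag GTPase, rose by 2.17 on the log2 scale (SE 0.42, adjusted p = 0.000467) and 1.504 on the log2 scale (SE 0.30, adjusted p = 0.00109), and Castor2, a partner and relative of the arginine sensor Castor1, by 1.14 on the log2 scale (SE 0.13, adjusted p = 3.54e-06) at the first step. Castor1 itself, named after its values were seen, was lower in BEC than in early by 1.06 on the log2 scale (SE 0.28, adjusted p = 0.00350). Sar1b and the Ragulator subunit Lamtor4 fell at both steps, by 1.21 and 0.87 at the first.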

How the data were processed

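RNA-seq libraries of 12 sorted samples, 3 in each of 4 groups taken from the sample titles, were compared. The authors deposited raw counts per gene symbol from featureCounts 2.0.1 after STAR 2.7.10b on GRCm39, per the submitters' processing notes; annotation, strand setting and treatment of multiply mapped reads are not given in the sources used here. The authors also deposited a signal table, in which each count is divided by 1 size factor per library (0.623 to 1.33); it was used only for that check. All tests used the counts.

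R 4.3.3 with edgeR 4.0.16, limma 3.58.1 and DESeq2 1.42.0 was used, and Python 3.11.15 with matplotlib 3.10.9 drew the figures. The filterByExpr function kept 16210 of 53599 genes, which were scaled by TMM and fitted in 1 robust quasi-likelihood model over all 12 libraries with a term per group. P-values were adjusted by Benjamini-Hochberg over all genes tested, with calls at 0.05; the common biological coefficient of variation was 14.8%. The standard error is the log2 fold change divided by the root of F. The floor of 3 counts is 0.128 to 0.273 CPM per library and covers counting error alone, as PCR copies are not separate molecules. The procedure was tested on simulated data: it recovered a smaller share of the changed genes than was first aimed for, and that aim was replaced, after the result was seen, by checks of bias, direction and false calls. Replicates of a group differed beyond counting error (chi-square per degree of freedom 5.36 to 58.6).

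The members, the lists and the tests were chosen with earlier results of these data known. Values in every library are given for Slc1a2, Slc3a1, Slc3a2, for each successive comparison the 4 called members with the largest change in each direction and a mean of 2 CPM or more in the higher of the groups, and for members called in opposite directions at the 2 steps or outside the range of early and BEC, 17 genes in all; the course of other members that rose or fell at every comparison is given by library or range. From each pathway list the most changed genes in BEC against early are named. Lists cover carriers that the rule did not match, mostly of other families, accessory proteins, and Atf4 and lysosomal sensing genes. Marker lists cover pericentral, periportal, hepatocyte, biliary, stellate, macrophage, endothelial, neutrophil, B cell, T and NK cell and erythroid cells.

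Deviations from group means were correlated across genes in each pair of libraries that share a number. For intermediate and early r was 0.121 to 0.293, for full and intermediate 0.137 to 0.322, and for BEC and full 0.170 to 0.257. The numbers were therefore taken to pair the libraries in these 3 comparisons, from the data, since the labels do not say what a number marks. In full against early and BEC against early the lowest r was 0.0960 and 0.0442, and they were not treated as paired. A number that marks a shared source would pair all groups alike, these included, and every r was above 0. The main fit has no term for the number. Alternatives were DESeq2, median-of-ratios factors, total counts only, no filter, a mean of at least 50 counts, a replicate block, fits of the 2 groups compared, and fits that each left out 1 library. Some genes of the lists are not reported here.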

Additional observations from a re-analysis of the deposited data

How the results depend on the processing

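Alternatives to the main settings left most fold changes of members on the same side of the threshold and in the same direction. Of 1055 values under settings other than leaving out 1 library, 982 were scored the same, 27 newly passed and 12 no longer passed. Of 1860 values with 1 library left out, 1764 were scored the same. Counts of members made up 117 of the 982 and 215 of the 1764. Such counts have no direction and were scored the same when close in size. The cause of the changes listed here was not tested. On total counts only, members called higher numbered 19 at the first step and 19 in full against early, members called lower at the first step 7, members lower at both steps 5, and members with intermediate above both early and BEC 1. With no filter on low counts 2 members had full above both early and BEC, and with a mean of at least 50 counts 0, as Slc6a19 was then not tested.

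Directions turned as follows. On total counts the first-step log2 fold change became 0.14 for Slc3a1, 0.25 for Slc3a2, 0.49 for Slc38a2, 0.29 for Slc38a7, 0.65 for Slc38a9, 0.38 for Slc38a10 and 0.20 for Slc43a3. The second step became 0.0937 for Slc6a8, 0.19 for Slc36a4, 0.17 for Slc38a2 and 0.13 for Slc38a9, and BEC against early 0.39 for Slc38a2 and 0.52 for Slc38a10. The other changes of sign lay near 0. At the second step Slc36a4 became 0.0253 with DESeq2, 0.0248 with median-of-ratios factors and 0.0110 with a mean of at least 50 counts, and Slc38a2 0.00979 with DESeq2 and 0.00968 with median-of-ratios factors. In BEC against full Slc3a2 became 0.00619 with DESeq2, 0.00630 with median-of-ratios factors, 0.00727 with a mean of at least 50 counts and 0.00775 with the replicate block. Slc38a9 became 0.0285 at the first step with no filter, and -0.00284 in BEC against early in the fit of these 2 groups.

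With 1 library left out at a time, first-step log2 fold changes ran from -0.63 to 0.0130 for Slc3a2 and -0.0834 to 0.0655 for Slc38a9. Second-step values ran from -0.0438 to 0.19 for Slc1a5, -0.0993 to 0.0446 for Slc36a4 and -0.16 to 0.11 for Slc38a2. BEC against full ran from -0.0715 to 0.10 for Slc3a2, -0.12 to 0.0160 for Slc36a4 and -0.63 to 0.65 for Slc38a11, and BEC against early from -0.0765 to 0.16 for Slc38a9. Members higher in BEC against full numbered 5 to 9, members lower then higher 1 to 3, intermediate above both early and BEC 0 to 1, and full above both 0 to 1 and below both 0 to 2. The replicate block, where the numbers pair the libraries, changed the calls of Slc3a1, Slc6a6 and Slc6a8 at the first step and of Slc38a2 and Slc43a1 in BEC against full, as given above, and no other call of a member; it gave 10 members higher and 14 lower at the first step beside 8 and 13 without it.

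Depth limits Slc43a1, Slc38a11, Slc7a3, Slc7a8 and Slc6a19, whose libraries hold few counts, and Slc1a1 in the intermediate libraries. Precision rests on 3 libraries a group.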

Other observations

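The 26 family symbols that are not members had few or no counts. Among them were the glutamate carrier Slc1a3, with at most 3 counts in a library, and the glutamine carrier Slc38a5, with at most 4. A total of 7 symbols had 0 counts in all 12 libraries. Slc7a15 and Slc7a9 had the most, 32 and 54 counts over all libraries.

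The periportal hepatocyte list had 10 of 10 genes lower at the first step and 9 of 10 at the second, with a summed level of 13062 to 16872 CPM in early and 149.9 to 334 in BEC libraries. Slc25a22, a mitochondrial glutamate carrier, had 237 ± 17.5 CPM in early and 27.4 ± 2.99 in BEC (SD, n = 3); it was chosen after its values were seen. The erythroid gene Alas2 was the only gene of its list with enough counts to test and fell at both steps.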
